A study of Mus musculus with 16 samples.

Results

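The genes described here are 43 interferon-stimulated and antigen presentation genes, chosen by symbol from the 55471 lines of each expression table, and all 43 were found in the tables of both days. They encode sensors of foreign nucleic acid (5 genes), the OAS family (5), the IFIT family (4), transcription factors of the response (4), ISG15 and the protease that removes it (2), other antiviral effectors (10), PARP9, DTX3L and related enzymes (4), guanylate-binding proteins (3), the class I antigen presentation machinery (5) and the chemokine Cxcl10. The measurements were made in neural stem cells of the mouse, isolated from E15-16 cortices of C57BL/6 embryos, pooled over embryos of mixed sex, and grown as monolayers with serum and FGF2 before the change to a differentiation medium without FGF2 on day 5. Every culture had been transduced with a lentivirus 1 day after seeding, carrying either a scrambled shRNA (shRNA CON) or an shRNA directed against the long noncoding RNA RUS (shRNA RUS), so that the controls carry a virus as well and untransduced cells were not part of the comparison. PolyA RNA was sequenced on day 5 and on day 7, with 4 libraries in each of the 4 groups, 16 in all. What distinguishes the 4 libraries of a group is given only as a replicate number, so the p-values measure the spread between these libraries.

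Cells detect viral RNA and DNA through receptors such as RIG-I (Ddx58), MDA5 (Ifih1) and ZBP1, and answer by secreting type I interferon. Interferon acts on receptors that use the kinases JAK1 and TYK2, and a complex that holds STAT2 and IRF9 then binds the interferon-stimulated response element (ISRE) in front of many genes whose products block viral replication. The same signal raises the class I molecules that display peptides to cytotoxic T cells, and these molecules depend on B2m, Tap1 and Tapbp for their assembly and their load of peptide. In the brain, microglia are a main source of interferon and of chemokines, whereas neurons and their precursors carry little class I at rest.

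The values are TPM, shares of all transcripts of a library that are corrected for transcript length and so allow levels of different genes to be set side by side, but which keep no sequencing depth, so that the precision of counting behind each value is unknown. Each library was divided by a scaling factor (0.92 to 1.11 on day 5, 0.991 to 1.01 on day 7), and the levels below are these scaled TPM. A member is called higher or lower where the limma test across all genes gave an adjusted p under 0.05, and a log2 fold change is on the scale of log2(scaled TPM + 0.1), which understates changes of genes with low levels.

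The targeted gene, Gm20754 (GRCm38, chr3:73066316-73594830, plus strand), was measured close to the detection limit. On day 5 it had 0.216, 0.107, 0.171 and 0.154 scaled TPM with shRNA CON and 0.0543, 0, 0.128 and 0.317 with shRNA RUS. The day 7 values were 0.706, 0.715, 0.258 and 0.543 with shRNA CON against 0.542, 0.38, 0 and 0.0396 with shRNA RUS. The groups overlapped on both days and the difference was called on neither (adjusted p = 0.52 and 0.11), so these values do not check the labels. The library labelled shRNA RUS replicate 4 of day 5 had more Gm20754 than any control of that day, and on the first principal component of that day, with 28.6% of the variance, it lay at 15.9 against 40.5 to 56.2 for the other shRNA RUS libraries and -53.6 to -26.1 for the controls. Counts of day 5 are therefore also given without it.

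Promoter windows from RefSeq (GRCm38.p6), 250 bases before to 50 bases after the start of the gene, matched 33 of the 43 members. They were searched on both strands for an ISRE core, spelled GAAANNGAA, and for the core of the interferon gamma activated site (GAS), spelled TTCNNNGAA. Of the 33 genes, 20 (60.6%) had an ISRE core, against 9.76% of the 27025 genes with a window and 8.56% of all 32851 windows. The GAS core stood in 8 of the 33 (24.2%), against 9.55% of genes and 8.30% of windows. The 7 windows shown are of 3 members that fell on both days (Oas1a, Ifi44 and Bst2), of the member with the largest rise on day 7 (Stat2), of the pair Ifit3 and Ifit3b, and of Cxcl10, whose difference between the days was the largest. They run 5′ to 3′ on the strand of the gene, and the capitals mark the ISRE core, read on either strand, with overlapping matches joined.
Oas1a (chr5:120907476-120907775, minus strand): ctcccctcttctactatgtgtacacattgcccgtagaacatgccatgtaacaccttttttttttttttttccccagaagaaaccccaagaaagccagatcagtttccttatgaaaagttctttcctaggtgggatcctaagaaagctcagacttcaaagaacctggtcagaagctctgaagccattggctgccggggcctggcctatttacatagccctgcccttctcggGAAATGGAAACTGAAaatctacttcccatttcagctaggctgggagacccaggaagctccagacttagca
Ifi44 (chr3:151749861-151750160, minus strand): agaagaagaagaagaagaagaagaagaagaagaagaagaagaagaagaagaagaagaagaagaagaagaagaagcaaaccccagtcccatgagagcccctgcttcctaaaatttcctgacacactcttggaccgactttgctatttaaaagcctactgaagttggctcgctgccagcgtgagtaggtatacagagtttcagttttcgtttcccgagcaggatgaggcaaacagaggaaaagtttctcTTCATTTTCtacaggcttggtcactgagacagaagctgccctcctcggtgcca
Bst2 (chr8:71537423-71537722, minus strand): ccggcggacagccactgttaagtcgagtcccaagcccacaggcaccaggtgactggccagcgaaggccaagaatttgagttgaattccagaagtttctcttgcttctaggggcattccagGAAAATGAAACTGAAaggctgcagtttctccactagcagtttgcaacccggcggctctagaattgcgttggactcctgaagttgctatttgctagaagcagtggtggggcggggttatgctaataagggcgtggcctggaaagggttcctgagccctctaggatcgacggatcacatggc
Stat2 (chr10:128270248-128270547, plus strand): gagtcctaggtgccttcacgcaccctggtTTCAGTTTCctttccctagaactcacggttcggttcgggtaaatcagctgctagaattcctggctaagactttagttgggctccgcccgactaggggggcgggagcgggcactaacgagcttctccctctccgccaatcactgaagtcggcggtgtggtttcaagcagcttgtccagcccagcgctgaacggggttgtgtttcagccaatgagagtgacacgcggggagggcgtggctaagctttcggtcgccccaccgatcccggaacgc
Ifit3 (chr19:34583279-34583578, plus strand): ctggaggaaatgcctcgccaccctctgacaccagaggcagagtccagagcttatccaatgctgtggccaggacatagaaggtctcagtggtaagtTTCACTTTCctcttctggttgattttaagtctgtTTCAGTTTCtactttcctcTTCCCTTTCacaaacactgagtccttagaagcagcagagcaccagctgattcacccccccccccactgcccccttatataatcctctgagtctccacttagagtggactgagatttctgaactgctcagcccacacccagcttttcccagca
Ifit3b (chr19:34607707-34608006, plus strand): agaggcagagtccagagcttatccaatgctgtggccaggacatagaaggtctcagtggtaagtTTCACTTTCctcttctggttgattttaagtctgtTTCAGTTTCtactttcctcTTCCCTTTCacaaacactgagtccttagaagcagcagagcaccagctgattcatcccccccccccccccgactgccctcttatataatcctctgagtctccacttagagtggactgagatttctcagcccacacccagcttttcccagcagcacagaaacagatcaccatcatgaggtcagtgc
Cxcl10 (chr5:92348840-92349139, minus strand): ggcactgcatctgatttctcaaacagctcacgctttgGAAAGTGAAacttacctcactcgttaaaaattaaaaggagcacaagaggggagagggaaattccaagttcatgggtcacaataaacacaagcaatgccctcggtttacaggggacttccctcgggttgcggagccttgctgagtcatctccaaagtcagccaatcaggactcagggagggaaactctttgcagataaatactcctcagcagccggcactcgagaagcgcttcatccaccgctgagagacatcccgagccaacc

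In Oas1a and in Bst2, 2 cores overlapped with their first bases 6 bases apart, and Isg15 had 3 such overlapping cores. Ifit3 and Ifit3b each held 3 cores at the same spacing, 34 and then 19 bases from first base to first base. Cores were found in all 3 windows of the guanylate-binding protein genes, in 3 of 4 of the IFIT genes (not Ifit2), in 1 of 4 of the transcription factor genes (Stat2) and in 1 of 5 of the antigen presentation genes (B2m). Among members with a window, the core stood in 12 of the 21 that fell on day 7 and in 4 of the 7 that rose, the same share of 57.1%. A match is a run of letters and says nothing of whether a factor was bound.

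In the controls the members covered a wide range of levels. On day 5 B2m, the light chain of class I molecules, was the most abundant member (739 ± 57.5 scaled TPM, SD, 4 libraries), followed by Ifitm3, which blocks entry of viruses into the cell (649 ± 20.4), the class I heavy chain H2-K1 (438 ± 54.5), Ifi27 (215 ± 23.3), the heavy chain H2-D1 (167 ± 23) and Bst2, which tethers virus particles to the cell surface (131 ± 18.3). The order of B2m, Ifitm3 and H2-K1 was separated by no more than the spread for the first pair, whose ranges of 678 to 802 and 636 to 679 touched. These 6 genes held 75.4% of the summed level of the members, 29 members had a control mean of at least 10, and 39 of at least 1. Oas3 was lowest, between 0.0576 and 0.18 in the controls of that day and listed at 0 in 2 libraries of day 7, and it was left out of the tests that include day 7 because its mean lay under 0.1 TPM.

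Some members share sequence with other genes, so that their values depend on how reads were divided between copies. Of all 50-base words of the Ifit3 transcripts, 51.2% also stood in Ifit3b, and 57.6% of those of Oas1a stood in Oas1g. The shares were 12.8% for H2-D1 and 9.63% for H2-K1, which share words with other class I genes, and 12.7% for Gbp7. Exons of Cxcl10, Irf7, Dhx58 and Tap1 overlap an exon of a gene on the opposite strand (Art3, Phrf1, Dhx58os and Psmb9), as do those of Irf1, Tapbp, Usp18, Ifi35, Oasl1, Gbp2 and Eif2ak2, and those of Dtx3l and Parp9 overlap each other on opposite strands. On the same strand, exons of Tapbp overlap Zbtb22, those of Irf9 overlap Rnf31, and those of Rtp4, Parp14 and Gbp7 overlap other gene models, so that reads there could be assigned to either gene. Whether the counting used strand is not given in the sources used here.

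On day 5, 16 of the 43 members were lower with shRNA RUS and 4 were higher, which is 37.2% and 9.30%, against 17.9% and 14.8% of the 22581 genes tested. Without the library labelled shRNA RUS replicate 4, 15 were lower and 4 higher. Over the members the median of the log2 fold changes was -0.16, against -0.06 over all genes. The shRNA RUS libraries lay entirely below the controls for 17 members and entirely above for 3, against 18.7% and 14.1% of all genes. With TPM as deposited, that is without the scaling factors, the median over all genes was -0.21, only 22.7% of all calls of that day were in the higher direction instead of 45.4%, and the members split into 21 lower and 2 higher.

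**Figure D1:**
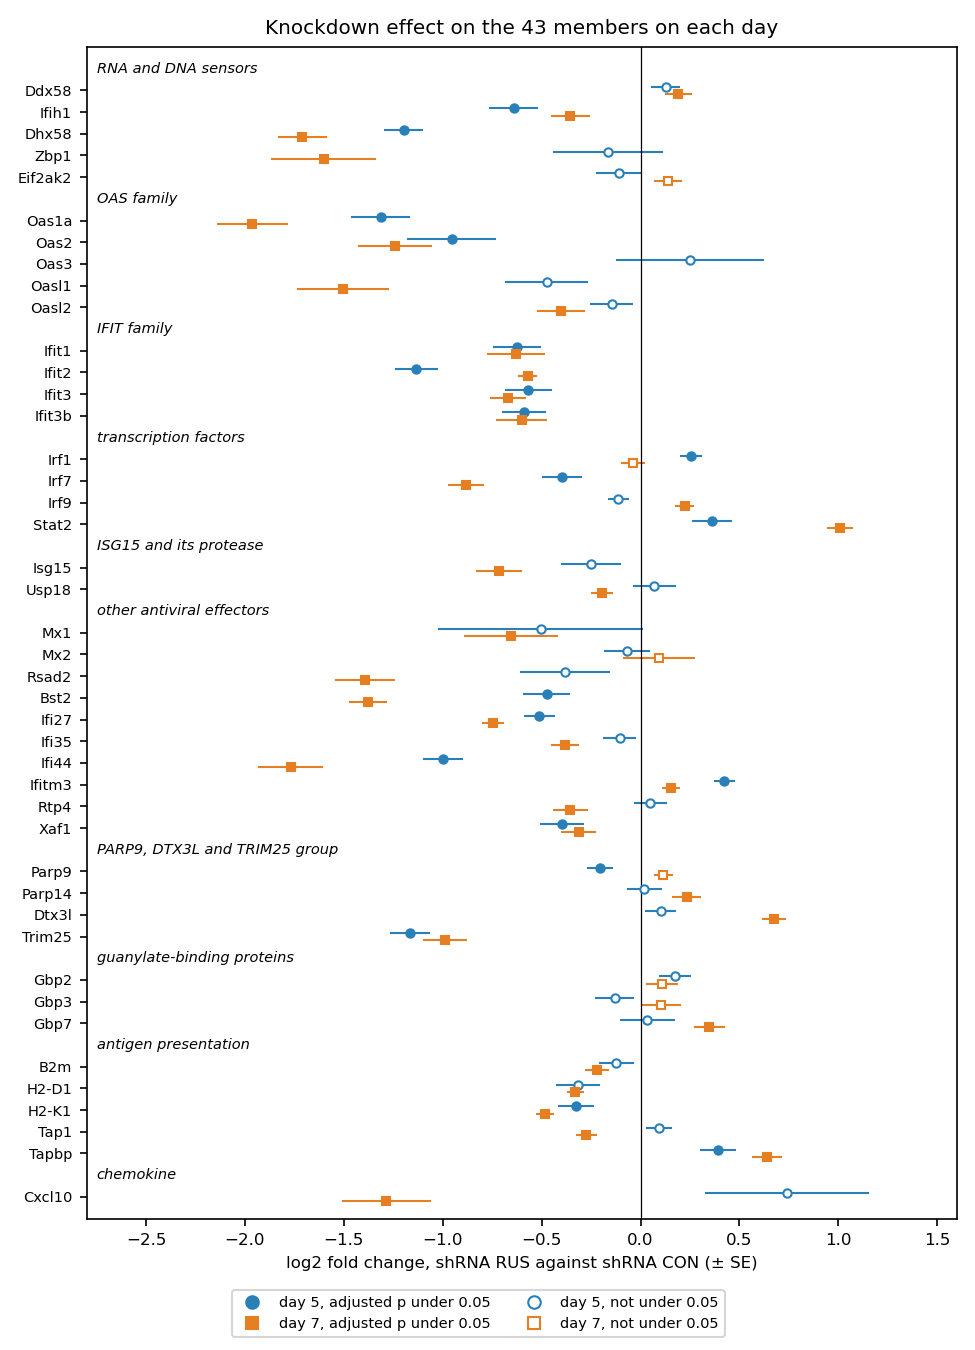
Log2 fold change between shRNA RUS and shRNA CON for each of the 43 members, grouped by role, on day 5 (circles) and day 7 (squares), with standard errors as bars. Filled symbols mark an adjusted p under 0.05. Oas1a reached -1.31 and -1.96, whereas Stat2 reached 0.36 and 1.01.

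On day 7, 28 of the 42 members tested (66.7%) were lower with shRNA RUS and 8 (19.0%) were higher, against 25.8% and 23.4% of the 24606 genes tested. Over the members the median of the log2 fold changes was -0.37, against -0.03 over all genes. Libraries of the 2 arms did not overlap for 32 members, 25 with shRNA RUS below and 7 above, against 24.7% and 22.3% of all genes. Across both days 15 members were lower at each time, 3 were higher at each time, 13 were lower and 5 higher on day 7 without a call on day 5, and Parp9 and Irf1 were called on day 5 without a call on day 7. Eif2ak2, Gbp2, Gbp3 and Mx2 were called on neither day. The difference between the days is tested further below.

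**Figure D2:**
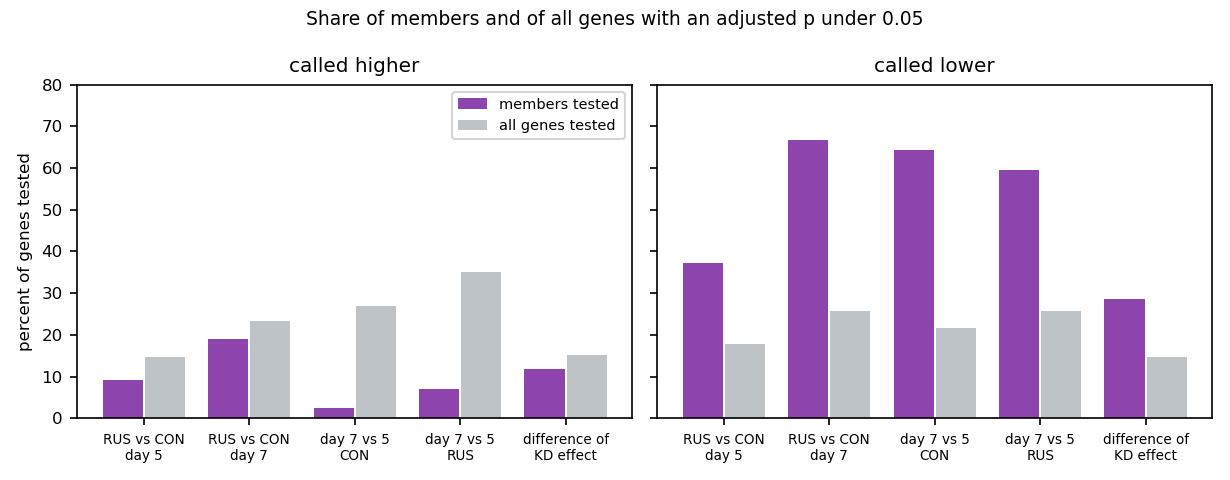
Percent of the members tested (purple) and of all genes tested (grey) with an adjusted p under 0.05 in each of the 5 comparisons, the last being the difference of the effect of shRNA RUS (KD effect) between the days, higher on the left and lower on the right. The members exceed all genes in the lower direction in each comparison, for example 66.7% against 25.8% on day 7.

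Markers of other cell types moved with the arms. All 12 microglia and macrophage markers were lower with shRNA RUS on day 7 (median log2 fold change -0.93), and their summed level was 524 to 585 scaled TPM in the controls and 259 to 321 with shRNA RUS. None of the 12 was at 0 in any library. On day 5 the sums overlapped, with 193 to 209 in the controls and 178 to 251 with shRNA RUS, and 3 of the 12 markers were lower and 1 was higher. For this and the marker counts below, 17.9% of all genes were lower and 14.8% higher on day 5, and 25.8% and 23.4% on day 7. The part of the microglia and macrophage markers in the results of either day was not tested, and in bulk RNA fewer cells of a type cannot be told apart from less RNA per cell. The 7 astrocyte markers summed to 4126 to 4317 in the controls and 5533 to 5902 with shRNA RUS on day 5, and to 2818 to 2877 and 3580 to 3754 on day 7. Gfap and Aldoc made up most of these sums. Of these 7, 2 were higher (Gfap and Aldoc) and 1 lower (Slc1a2) with shRNA RUS on day 5. On day 7, 3 were higher (Gfap, Aldoc and Aldh1l1) and 1 lower (S100b). The 7 neural stem and radial glia markers summed to 11410 to 13438 in the controls and 16308 to 19492 with shRNA RUS on day 5, and to 7294 to 7634 and 7646 to 8423 on day 7, with none at 0. Vim and Fabp7 made up most of these sums. On day 5 3 of the 7 were higher (Vim, Fabp7 and Pax6) and 2 lower (Nes and Hes5) with shRNA RUS, and on day 7 2 were higher (Vim and Pax6) and 3 lower (Nes, Hes5 and Slc1a3). Nes had 51.3 to 57.4 in the controls and 26.9 to 31.9 with shRNA RUS on day 5, and 105 to 118 and 42.7 to 53.8 on day 7. The 7 lymphocyte markers summed to at most 0.628 and each was at 0 in at least 1 library. Neuron markers overlapped between the arms in sum on both days, while 2 of the 7 were higher and 2 lower with shRNA RUS on day 5 and 3 were higher and 2 lower on day 7. Oligodendrocyte lineage markers moved with the arms at both times, with 4 of 8 lower and none higher on day 5 and 6 of 8 lower and none higher on day 7. Their median log2 deviation from the control mean was -0.81 to -0.48 with shRNA RUS and -0.12 to 0.08 in the controls on day 5, and -0.58 to -0.44 and -0.13 to 0.10 on day 7. Their sums were 152 to 235 with shRNA RUS and 227 to 303 in the controls on day 5, which overlap, and 262 to 287 and 403 to 446 on day 7. Among them Pdgfra, the receptor that marks oligodendrocyte precursors, had 7.91 to 11.3 with shRNA RUS and 18 to 22.1 in the controls on day 5. Of 7 fibroblast and mural markers tested, 1 was higher and 1 lower on day 5 and 4 were higher and none lower on day 7, when their median deviation was 0.34 to 0.44 with shRNA RUS and -0.16 to 0.25 in the controls. Of 5 endothelial markers tested, 1 was lower on day 5, and 1 was lower and 1 higher on day 7. The lower one was Kdr, at 2.40 to 3.11 with shRNA RUS against 4.63 to 5.26 on day 5 and 2.15 to 2.74 against 6.21 to 6.43 on day 7, and the higher one was Esam, at 0.399 to 0.633 against 0.119 to 0.363 on day 7. The marker genes named with values were chosen after their values were seen. The part of these cell types in the results was not tested.

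**Figure D3:**
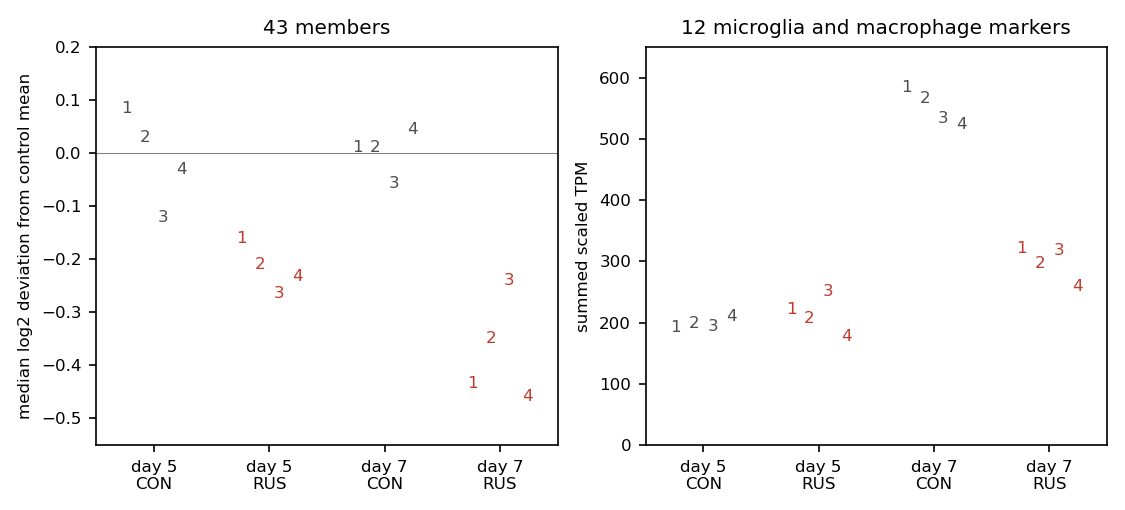
Left, median over the 43 members of the log2 deviation from the control mean of the same day, for each library, with the replicate number as the symbol. Right, summed scaled TPM of 12 microglia and macrophage markers in the same libraries. The markers separate the arms on day 7 (259 to 321 against 524 to 585) and overlap on day 5.

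Within a group the members tended to be low in the same library. The same count over all genes is not given, so whether this is particular to the members is not known. Members that move together are not independent, and counts of members called are not counts of separate results. In the day 5 controls replicate 3 had the lowest value of the group for 29 of the 43 members, and with shRNA RUS on that day replicate 3 had the lowest value for 23 and the highest for none. On day 7 replicate 3 of the controls was lowest for 22 members, and replicate 4 with shRNA RUS was lowest for 26 of the 42 that were above 0 in all libraries of that group. The median deviation of the members from the control mean of the day ran from -0.27 to -0.16 in the shRNA RUS libraries of day 5 and from -0.46 to -0.24 on day 7, below each of the controls of the same day, which spanned -0.12 to 0.09 and -0.06 to 0.05.

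Among the sensors, Dhx58 (LGP2), a regulator of RIG-I and MDA5, fell most on day 5. It had 5.79, 5.35, 5.06 and 4.70 scaled TPM in the controls of day 5 and 2.16, 2.46, 2.12 and 2.13 with shRNA RUS, which gave a log2 fold change of -1.20 (SE 0.10, adjusted p = 5.1e-05), and the groups were far apart. On day 7 the values were 6.10, 5.75, 4.98 and 6.01 against 1.56, 2.07, 1.65 and 1.46, a log2 fold change of -1.71. Ifih1, the sensor of long double-stranded RNA, fell less, by 0.64 and 0.36 on the log2 scale, and did not overlap on either day. Zbp1, which senses left-handed nucleic acid, was called only on day 7, with 1.26, 1.32, 0.823 and 1.42 in the controls and 0.221, 0.25, 0.548 and 0.337 with shRNA RUS (log2 fold change -1.60). Ddx58 (RIG-I) moved the other way, with a log2 fold change of 0.19 on day 7 (adjusted p = 0.043, but up to 0.11 in the alternatives run, above the threshold without any 1 of the replicates 1, 2 and 3 of either arm), and Eif2ak2 (PKR), the kinase that stops translation, gave -0.11 and 0.14 without a call.

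The OAS genes encode synthetases that make the oligoadenylate activating RNase L, and Oas1a had the largest fall of all members on both days. It read 4.76, 4.14, 3.47 and 4.52 scaled TPM in the controls of day 5 and 1.72, 1.64, 1.28 and 1.93 with shRNA RUS, which gave a log2 fold change of -1.31 (SE 0.15, adjusted p = 0.00022). On day 7 it read 4.50, 4.14, 4.23 and 4.33 against 0.974, 1.04, 1.49 and 0.733, a log2 fold change of -1.96 (SE 0.18, adjusted p = 1.6e-05). Every shRNA RUS library lay below every control at both times. Oas2 fell by 0.95 and 1.24 on the log2 scale at levels near 1 scaled TPM. Oasl1, which restrains the translation of Irf7, was called only on day 7 (-1.51), where the controls had 2.26 to 3.23 and the shRNA RUS libraries 0.663 to 1.47. Oasl2 was the most abundant of the family, with 51.2 ± 6.06 and 46.4 ± 6.02 on day 5, where the groups overlapped, and 41.3 ± 3.34 and 31.6 ± 5.67 on day 7 (log2 fold change -0.40, adjusted p = 0.020, up to 0.054 without control replicate 4 or shRNA RUS replicate 1). Oas3 overlapped on day 5, with a log2 fold change of 0.25 and an adjusted p of 0.65.

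All 4 IFIT genes, whose proteins bind viral RNA and block its translation, were lower with shRNA RUS on both days and did not overlap on either. They lie within chr19:34550694-34650009. Ifit2 had 27.9, 26.3, 27.2 and 24 scaled TPM in the controls of day 5 and 13.1, 10.8, 10.1 and 14.2 with shRNA RUS, which gave a log2 fold change of -1.13 (SE 0.11, adjusted p = 9.7e-05). The day 7 values were 21.8, 22.4, 23.7 and 24.6 against 15.3, 15.9, 15.3 and 15.6, a smaller fall of 0.57 on the log2 scale. Ifit3, the most abundant of them, went from 87.8, 106, 78.9 and 87.7 to 60.0, 74.7, 56.6 and 52.3 on day 5 and from 53.7, 49.9, 54.9 and 55 to 30.3, 36.8, 38.7 and 29.0 on day 7. The log2 fold changes were -0.57 and -0.67 for Ifit3, -0.59 and -0.60 for Ifit3b, with which it shares much of its sequence, and -0.62 and -0.63 for Ifit1.

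**Figure D4:**
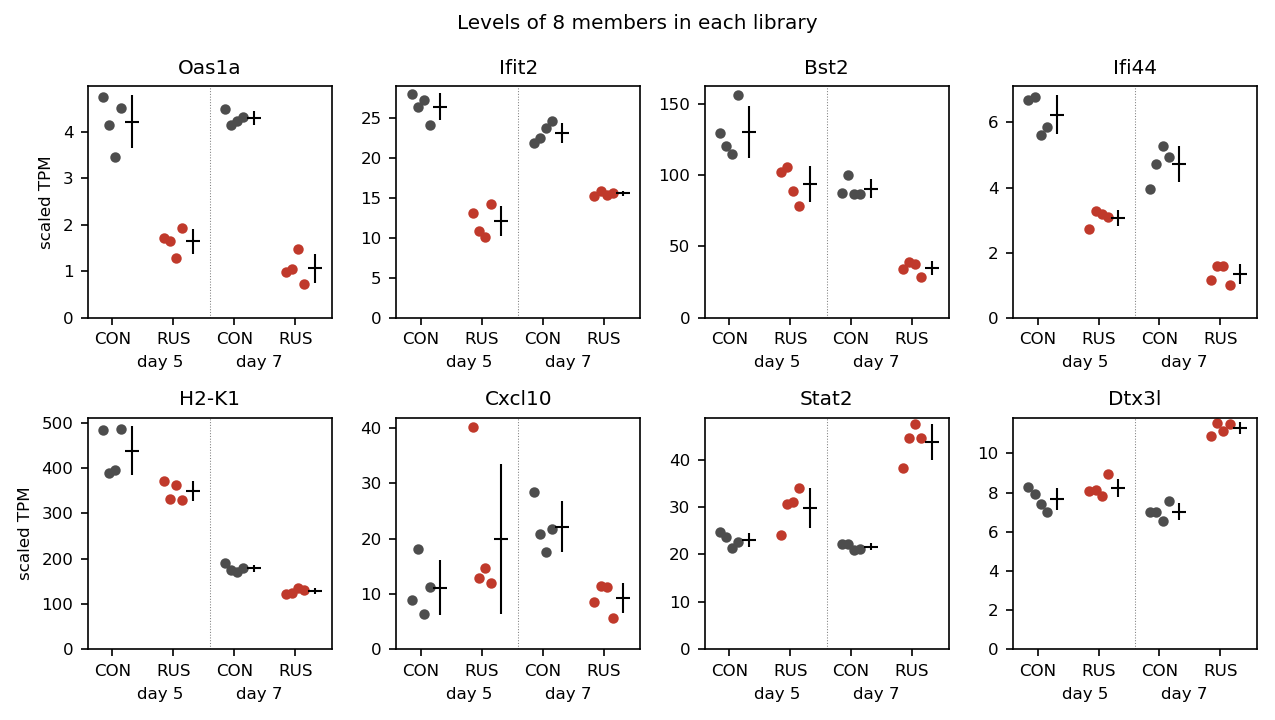
Scaled TPM of 8 members in each of the 16 libraries (points), with the mean and SD of each group of 4 as black bars, controls in dark grey and shRNA RUS in red. Oas1a, Ifit2, Bst2 and Ifi44 lie lower with shRNA RUS on both days, Stat2 and Dtx3l lie above all controls on day 7 only, and a single library of day 5 is far above the rest for Cxcl10.

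The transcription factors did not move together. Stat2 and Irf9, which form the complex that binds the ISRE, were both higher on day 7, whereas Irf7, which amplifies the interferon response, was lower on both days. Stat2 had 22.3, 22.2, 21.0 and 21.1 scaled TPM in the controls of day 7 and 38.3, 44.6, 47.4 and 44.5 with shRNA RUS, which gave a log2 fold change of 1.01 (SE 0.06, adjusted p = 1.9e-06) and the largest rise among the members. On day 5 the groups still overlapped, with 21.4 to 24.8 against 24 to 33.9, and the log2 fold change of 0.36 had an adjusted p of 0.025 that reached 0.24 among the alternatives, above the threshold without control replicate 3 or 4 or without shRNA RUS replicate 2 or 3. Irf9 lay below the controls on day 5 without a call (30.7 to 31.2 against 27.1 to 30.3, log2 fold change -0.11, adjusted p = 0.13) and changed from 28.8, 30.1, 27.9 and 29.8 to 34.0, 33.7, 36.5 and 32.1 on day 7 (log2 fold change 0.22). Irf7 went from 16.8, 15.1, 13.6 and 17.2 to 10.6, 13.5, 12.3 and 11.1 on day 5 and from 10.8, 12.2, 11.1 and 11.4 to 5.86, 6.44, 6.98 and 5.30 on day 7, log2 fold changes of -0.40 and -0.88. Irf1, which drives many genes of the response to interferon gamma, was higher only on day 5 (17.2 to 18.2 against 20.6 to 22.5, log2 fold change 0.26, not called with TPM as deposited, adjusted p = 0.25) and had a log2 fold change of -0.04 on day 7, without a call.

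Isg15, a ubiquitin-like modifier, and Usp18, the protease that removes it and dampens receptor signalling, were called on day 7 and not on day 5, and the difference between the days was not called for either (adjusted p = 0.091 and 0.11). Isg15 had 26.7, 33.1, 31.1 and 34.2 scaled TPM in the controls and 16.6, 20.3, 22.8 and 16.6 with shRNA RUS, which gave a log2 fold change of -0.72 (SE 0.12, adjusted p = 0.00069). Usp18 differed little, 19.1 ± 0.88 against 16.7 ± 0.88 (log2 fold change -0.19).

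Of the 10 other antiviral effectors, 4 were lower and 1 was higher on day 5, against 17.9% and 14.8% of all genes. On day 7, 8 were lower and 1 was higher, against 25.8% and 23.4% of all genes. Bst2 had 130, 120, 115 and 156 scaled TPM in the controls of day 5 and 102, 106, 88.9 and 78.3 with shRNA RUS, which gave a log2 fold change of -0.48. On day 7 it had 87.5, 101, 86.8 and 87.2 against 34.1, 39.4, 37.7 and 28.7, a log2 fold change of -1.38 (SE 0.10, adjusted p = 3.2e-06). The arms did not overlap at either time. Ifi44, an interferon-induced protein of the cytoplasm, had 6.70, 6.79, 5.62 and 5.85 against 2.72, 3.28, 3.17 and 3.10 on day 5 and 3.96, 4.73, 5.27 and 4.92 against 1.15, 1.59, 1.58 and 1.00 on day 7, log2 fold changes of -1.0 and -1.77. Ifi27 had 194 to 243 in the controls and 142 to 156 with shRNA RUS on day 5, and 180 to 214 against 111 to 124 on day 7 (log2 fold changes -0.51 and -0.75). Xaf1, an antagonist of inhibitors of apoptosis, fell by 0.40 and 0.31 on the log2 scale, and its adjusted p reached up to 0.058 on day 5 without control replicate 2 or shRNA RUS replicate 1, and 0.059 on day 7 with the replicate number as a block.

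Rsad2 (viperin), which makes a chain-terminating nucleotide, had 9.01, 8.11, 7.62 and 9.10 scaled TPM in the controls of day 7 and 2.79, 3.59, 4.05 and 2.43 with shRNA RUS, which gave a log2 fold change of -1.39 (SE 0.15, adjusted p = 5.3e-05). On day 5 it overlapped, with 5.45 to 9.25 against 3.59 to 7.24. Ifi35 and Rtp4 were likewise called on day 7 and not on day 5, with log2 fold changes of -0.38 and -0.35, and did not overlap on day 7. The difference between the days was not called for Ifi35 (-0.29, adjusted p = 0.064). Mx1, a dynamin-like GTPase, was just inside the threshold on day 7 (log2 fold change -0.65, adjusted p = 0.047) with overlapping groups, and 9 of its 16 alternatives took it outside, among them those without control replicate 1, 3 or 4 or shRNA RUS replicate 1 or 4. Its relative Mx2, annotated as a polymorphic pseudogene, gave -0.07 and 0.10 without a call. Ifitm3 was the exception among the effectors, with 636, 636, 646 and 679 in the controls of day 5 and 905, 894, 855 and 829 with shRNA RUS (log2 fold change 0.42, adjusted p = 0.00034), and 269 to 301 against 305 to 335 on day 7 (0.15, adjusted p = 0.020). The day 5 call of Ifitm3 was lost with quantile normalization (adjusted p = 0.083), and that of day 7 had an adjusted p of up to 0.060, above the threshold without control replicate 3 or shRNA RUS replicate 2 or 3.

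Parp9 and Dtx3l, partners in a complex that modifies histones, are neighbours transcribed in opposite directions (chr16:35938470-35972605, plus strand, and chr16:35926511-35939151, minus strand). Dtx3l had 6.98, 6.98, 6.57 and 7.59 scaled TPM in the controls of day 7 and 10.9, 11.5, 11.2 and 11.5 with shRNA RUS, which gave a log2 fold change of 0.68 (SE 0.06, adjusted p = 1.4e-05), with no call on day 5. Parp9 had 17.9 to 19.7 against 19.5 to 21.4 on day 7 (log2 fold change 0.12, adjusted p = 0.078). Its day 5 fall of 0.20 on the log2 scale had an adjusted p of 0.041, which lay above the threshold without any 1 of 7 of the 8 libraries, all but control replicate 4. Parp14 was higher on day 7 (0.23, adjusted p = 0.022, up to 0.069 among the alternatives, outside without control replicate 1 or 2 or shRNA RUS replicate 1 or 2). Trim25, a ubiquitin ligase that acts on RIG-I, was among the steadiest falls, from 9.90, 9.33, 8.42 and 9.01 to 4.06, 4.25, 3.4 and 4.45 on day 5 and from 8.37, 8.26, 7.91 and 7.47 to 3.80, 3.68, 5.05 and 3.54 on day 7 (log2 fold changes -1.17 and -0.99). Of the guanylate-binding proteins, GTPases that attack the membranes around pathogens, Gbp7 was higher on day 7 (11 to 13.0 against 13.8 to 16.7, log2 fold change 0.35), and Gbp2 and Gbp3 had log2 fold changes between -0.13 and 0.17 on both days without a call.

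In antigen presentation, the heavy chains and B2m were lower with shRNA RUS on day 7 while Tapbp was higher. H2-K1 had 484, 388, 394 and 487 scaled TPM in the controls of day 5 and 371, 330, 363 and 328 with shRNA RUS (log2 fold change -0.33, adjusted p = 0.022, up to 0.063 without control replicate 1 or 4 or shRNA RUS replicate 2). On day 7 it had 189, 175, 170 and 179 against 121, 124, 135 and 130, a log2 fold change of -0.48 (SE 0.05, adjusted p = 2.3e-05), and no library overlapped. H2-D1 fell by 0.33 on the log2 scale on day 7, from 110 to 116 down to 84.2 to 94.5. For B2m the ranges of 427 to 494 and 374 to 435 overlapped on day 7, and the log2 fold change of -0.22 (adjusted p = 0.012) was lost with quantile normalization (adjusted p = 0.14). Tap1, a subunit of the peptide transporter, gave 0.09 without a call on day 5 and fell by 0.27 on the log2 scale on day 7, from 27.8 to 28.9 down to 22.3 to 26.2. Tapbp (tapasin), which holds empty class I molecules at the transporter, had 79.5 to 92.2 against 94.8 to 124 on day 5 and 69.9 to 88.4 against 115 to 133 on day 7, log2 fold changes of 0.39 and 0.64 with no overlap at either time.

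Cxcl10, a chemokine that draws T cells, varied widely between libraries. On day 5 it had 8.88, 18.1, 6.41 and 11.2 scaled TPM in the controls and 40.2, 12.9, 14.7 and 12 with shRNA RUS, and with this spread the log2 fold change of 0.74 (SE 0.41) was not called (adjusted p = 0.20). On day 7 it had 28.5, 20.8, 17.6 and 21.7 in the controls and 8.49, 11.4, 11.3 and 5.68 with shRNA RUS, which gave a log2 fold change of -1.29 (SE 0.23, adjusted p = 0.0011) without overlap. The sign of the difference thus was not the same on the 2 days, but that of day 5 was not called. There shRNA RUS replicate 1, at 40.2, stood apart from the rest of its group.

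The effect of shRNA RUS itself, the log2 fold change between the arms, was compared between the days in 1 fit over all 16 libraries. It was lower on day 7 for 12 of 42 members (28.6%) and higher for 5 (11.9%), against 14.6% and 15.2% of the 23789 genes tested. Cxcl10 had the largest difference, -2.04 (SE 0.52, adjusted p = 0.0078), followed by Zbp1 (-1.43), Oasl1 (-1.03, with an adjusted p of up to 0.055 without day 5 control replicate 1 or 3, day 7 control replicate 1 or day 7 shRNA RUS replicate 1 or 4), Rsad2 (-1.02), Bst2 (-0.91) and Ifi44 (-0.77). On the other side were Stat2 (0.63, SE 0.13, adjusted p = 0.0016), Dtx3l (0.56), Ifit2 (0.55), Irf9 (0.32) and Parp9 (0.31). For Ifit2 this is a fall that was smaller on day 7, and for Stat2 and Dtx3l a rise that was larger. With TPM as deposited 6 were lower and 7 higher, the median of all genes moved from 0.04 to 0.19, and 73.5% of all calls were in the higher direction instead of 51.1%. Rtp4 (-0.42) lost its call without day 5 control replicate 3. The comparison is not independent of the per-day values above, since it uses the same libraries. Of the 12 microglia and macrophage markers, 11 also had a lower effect of shRNA RUS on day 7, and their part in these differences was not tested.

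Between day 5 and day 7 more members fell than rose in each arm. In the controls 27 of 42 (64.3%) were lower and 1 was higher on day 7, against 21.6% and 26.9% of all genes, and with shRNA RUS 25 (59.5%) were lower and 3 higher, against 25.8% and 35.0%. The median of the members' log2 fold changes was -0.34 in the controls, where that of all genes was 0.07, and -0.55 with shRNA RUS, where that of all genes was 0.13. With TPM as deposited the medians of all genes were 0.20 and 0.41, 71.4% and 76.9% of all calls were in the higher direction instead of 55.5% and 57.5%, and the members split into 19 lower and 3 higher in the controls and 20 lower and 9 higher with shRNA RUS. With the scaling factors, 19 members were lower in both arms. The single member higher in the controls was Oasl1 (log2 fold change 0.62, adjusted p = 0.034), a call that was lost without control replicate 1 or 3 of day 5 or replicate 1 or 2 of day 7, with an adjusted p of up to 0.18. Irf1 in the controls (-0.14) lost its call without any 1 of 9 libraries, Gbp7 in the controls (-0.37) without replicate 1 of either day, and Eif2ak2 with shRNA RUS (0.32) without replicate 3 of day 5. In the controls the microglia and macrophage markers went the other way, with 10 of 12 higher and none lower.

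**Figure D5:**
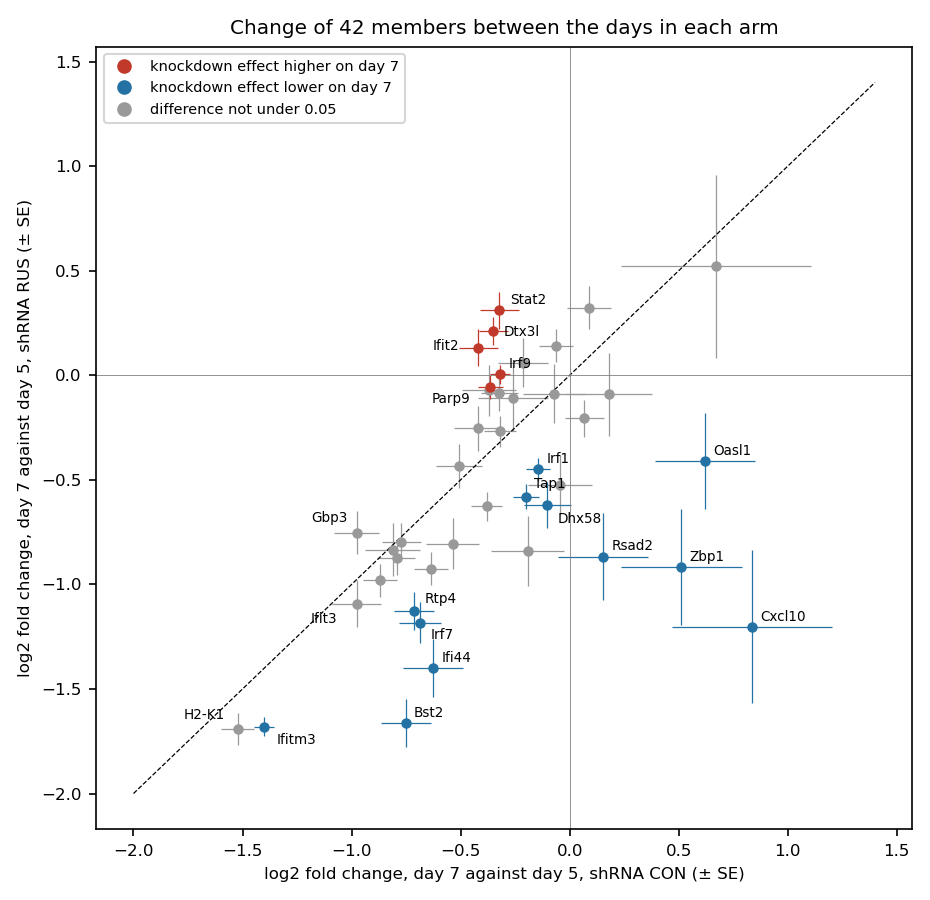
Log2 fold change between day 7 and day 5 for 42 members, in the controls on the horizontal axis and with shRNA RUS on the vertical axis, with standard errors. Red and blue mark members whose difference between the arms (the knockdown effect) was called higher or lower on day 7. Points under the dashed line of equality had a lower value of the change with shRNA RUS. H2-K1 and Ifitm3 lie far down in both arms, and Cxcl10 changed by 0.84 in the controls (not called) and -1.20 with shRNA RUS.

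All 5 antigen presentation members and all 3 guanylate-binding proteins were lower on day 7 in the controls, of which Tap1, Tapbp and Gbp7 were not called with TPM as deposited (adjusted p = 0.58, 0.099 and 0.20). On the scaling of all 16 libraries, H2-K1 went from 422 to 529 scaled TPM down to 157 to 175 in the controls and from 357 to 404 down to 112 to 123 with shRNA RUS, log2 fold changes of -1.52 (SE 0.08, adjusted p = 2.3e-10) and -1.69 (SE 0.08, adjusted p = 6.0e-11). Ifitm3 went from 691 to 737 down to 248 to 279 in the controls and from 902 to 985 down to 280 to 307 with shRNA RUS, log2 fold changes of -1.40 and -1.68. No library of one day overlapped with the other day for either gene. B2m fell by 0.87 and 0.98 on the log2 scale, H2-D1 by 0.77 and 0.80, and Gbp3 by 0.98 and 0.75. For the remaining members, Cxcl10, Dhx58, Isg15, Oas1a, Rsad2 and Zbp1 were lower on day 7 with shRNA RUS without a call in the controls. Stat2 and Dtx3l were lower on day 7 in the controls (-0.32 and -0.35) and higher with shRNA RUS (0.31 and 0.21), and the tests of the difference between the arms are those given above. That difference was not called for Oas1a (-0.65, adjusted p = 0.051) or Isg15 (-0.48, adjusted p = 0.091).

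Other genes of the pathway, from lists drawn up by function, placed these values beside the upstream steps. Of 10 interferon ligands none reached the mean of 0.1 TPM on day 5, and Ifnb1 and Ifng reached it on day 7. Ifnb1 had 0.303, 0.367, 0.198 and 0.422 scaled TPM in the controls and 0.171, 0.13, 0.11 and 0.0792 with shRNA RUS, which gave a log2 fold change of -0.91 (adjusted p = 0.022). Ifng had 0.477 to 0.703 against 0.169 to 0.41 (-0.72, adjusted p = 0.037). Both are very low levels. The shRNA RUS libraries lay entirely below the controls for both, which was also so for 24.7% of all genes on day 7. On day 5 Ifnb1 was listed at 0 in 4 of the 8 libraries.

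Receptors and kinases went mainly the other way, with 6 of 9 higher and none lower on day 5 and 5 of 9 higher and none lower on day 7. Of all genes, 14.8% were higher and 17.9% lower on day 5, and 23.4% and 25.8% on day 7. Ifnar2, a chain of the type I interferon receptor, had log2 fold changes of 0.75 and 0.47, Ifngr2, a chain of the interferon gamma receptor, 0.38 and 0.50, and the kinase Jak1 0.33 and 0.39, while Tyk2 was higher on day 7 (0.51). Of the 10 STATs, IRFs and feedback inhibitors outside the members, 2 were higher and 3 lower on day 5 and 4 were higher and 4 lower on day 7. Socs3 and Socs1, which inhibit the receptor kinases, had log2 fold changes of 1.01 and 0.92 on day 7, whereas Irf5 and Irf8, factors of myeloid cells, fell by 0.91 and 0.90 on day 7.

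Among 18 sensing and adaptor genes, 4 were higher and 3 lower on day 5 and 7 were higher and 8 lower on day 7. Ticam1 (TRIF), the adaptor of Tlr3, rose by 0.63 and 1.29 on the log2 scale, while Tlr3 itself had log2 fold changes of -0.62 and -0.70. Trex1, a nuclease that degrades cytosolic DNA, rose by 0.94 and 0.48, and Sting1 fell by 1.01 on day 7. Of 15 further class I pathway genes, 3 were higher and 5 lower on day 5 and 3 higher and 6 lower on day 7. Nlrc5, the transactivator of class I genes, fell by 0.62 on day 5 and rose by 0.91 on day 7, on the log2 scale, a difference between the days of 1.52 (SE 0.18, adjusted p = 3.3e-05), whereas the immunoproteasome subunits Psmb8 and Psmb9 fell by 0.91 and 0.72 on day 7. In the controls 12 of the 15 were lower on day 7 than on day 5 and none was higher, with H2-T23 at -1.87 and Psmb10 at -1.45. Of 7 class II pathway genes, 2 of 6 tested were lower on day 5 and 4 of 7 on day 7, among them H2-Eb1 on both days (-0.94 and -1.71) and H2-DMb1 on day 7 (-0.82). Of 20 further interferon-stimulated genes, 11 were lower and 2 higher on day 5 and 10 were lower and 2 higher on day 7, with Trim30a at -1.10 and -1.01, Isg20 at -1.37 on day 7 and Cmpk2 at -0.74 on day 7. Over all lists together, 24 of 78 genes tested (30.8%) were lower and 17 (21.8%) higher on day 5, against 17.9% and 14.8% of all genes. On day 7 34 of 81 (42%) were lower and 21 (25.9%) higher, against 25.8% and 23.4% of all genes.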

How the data were processed

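PolyA RNA of 16 libraries was sequenced by the authors on a NextSeq 500, aligned with STAR and quantified with RSEM against GRCm38 (mm10 and DESeq are also named in the submitters' processing notes), and the authors deposited TPM per gene and library, 1 table per day. The deposited tables also hold fold changes, p-values and means of the authors' own comparison, which were not used. TPM keeps no depth, which is therefore unknown, and each library sums to 1000000 within 1 TPM. The replicate numbers did not pair the libraries (correlations of same-numbered deviations from -0.25 to 0.10). Groups were taken from the sample titles.

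Values were divided by median-ratio factors over genes with at least 1 TPM in all libraries of a fit, genes averaging 0.1 TPM or more were kept, and log2(value + 0.1) was fitted with limma 3.58.1 (R 4.3.3, eBayes with trend, two-sided, Benjamini-Hochberg over all genes, threshold 0.05), per day for the arms and over all 16 libraries for the days, which left out 106 lines whose symbols differed between the tables. The fits were tested on simulated data with known changes. Alternatives were other pseudocounts, filters and scalings, eBayes without trend, a replicate block and leaving out each library. The members and lists were chosen with earlier results of these data known. The text names all 43 members and Gm20754. From each list of other pathway genes it names, in each comparison, at most the 4 called genes with the largest change and an average of 1 TPM or more. Any gene of a list of which 5 or fewer were tested is also named. Values of a named gene in a further comparison, and the marker genes, were not chosen by this rule. Gene positions are from GENCODE vM21 on GRCm38, and promoters from RefSeq. Dhx58, Zbp1, Oas2, Usp18, Mx1, Mx2, Ifi27, Rtp4, Parp9 and Parp14 had no window in the table used. Python 3.11.15 was used for counts and figures.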

Additional observations from a re-analysis of the deposited data

Results flagged for a closer look

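The effect of shRNA RUS differed between the days for 17 of 42 members by the interaction test. The log2 differences, day 7 minus day 5, were -2.04 for Cxcl10, -1.43 for Zbp1, -1.03 for Oasl1, -1.02 for Rsad2, -0.91 for Bst2, -0.77 for Ifi44, -0.52 for Dhx58, -0.50 for Irf7, -0.42 for Rtp4, -0.38 for Tap1, -0.30 for Irf1 and -0.28 for Ifitm3. They were 0.63 for Stat2, 0.56 for Dtx3l, 0.55 for Ifit2, 0.32 for Irf9 and 0.31 for Parp9. Of the 17, 7 lost the call in at least 1 alternative: Dhx58, Irf7, Rtp4, Tap1, Irf1 and Ifitm3 with TPM as deposited, and Oasl1 without 1 of 5 libraries. The value of Ifitm3 turned to 0.013 with quantile normalization.

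In 10 of the 172 groups of 4 libraries examined, 1 library stood apart from the other 3 by Dixon's criterion, which chance alone meets in about 5% of groups. On day 5 these were B2m at 795 scaled TPM in shRNA RUS replicate 1 (the others 627 to 650), Cxcl10 at 40.2 in the same library (12 to 14.7), Dhx58 at 2.46 in shRNA RUS replicate 2 (2.12 to 2.16), Mx1 at 2.39 in control replicate 2 (0.427 to 0.674), and Oas3 at 0.18 (0.0576 to 0.0683) and Oasl2 at 60.3 (47.4 to 48.7) in control replicate 1. On day 7 they were B2m at 427 in control replicate 3 (487 to 494), Bst2 at 101 (86.8 to 87.5) and Mx1 at 1.23 (1.61 to 1.63) in control replicate 2, and Oasl1 at 1.47 in shRNA RUS replicate 3 (0.663 to 0.791).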

How the results depend on the processing

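Each comparison of members was repeated under up to 24 alternatives. Of the members called, 12 of 20 kept the call in every alternative run on day 5, 28 of 36 on day 7, 18 of 28 for the days in the controls, 21 of 28 for the days with shRNA RUS and 10 of 17 for the difference between the days. With TPM as deposited, members called higher numbered 2 instead of 4 on day 5, 3 instead of 1 for the days in the controls and 9 instead of 3 with shRNA RUS, and members with a lower effect of shRNA RUS on day 7 numbered 6 instead of 12. The 1 member higher on day 7 in the controls, Oasl1, became 0 with no filter, with quantile normalization and with the replicate block. Leaving out 1 library gave 5 to 9 members higher on day 7 (5 without shRNA RUS replicate 2), 0 to 3 higher on day 7 in the controls (0 without control replicate 1 or 3 of day 5 or 1 or 2 of day 7, 3 without control replicate 2 of day 5, 2 without shRNA RUS replicate 1 of day 5), and 2 to 5 with shRNA RUS (5 without replicate 4 of day 5). Direction turned with TPM as deposited for Irf1 in the controls (0.0068) and for Ddx58 (0.056), Parp9 (0.27) and Tapbp (0.24) with shRNA RUS between the days, and with quantile normalization for the difference of Ifitm3 (0.013). The causes were not tested. With the replicate block, 3 members were higher and 13 lower on day 5 and 6 and 25 on day 7, and calls over all genes on day 5 fell from 3349 higher and 4034 lower to 2231 and 2735. Since TPM holds no depth, low values such as those of Oas3, Zbp1, Ifnb1 and Gm20754 carry an unknown counting error.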
